A study of Mus musculus with 2 samples.

Results

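The Bcl2 family decides whether the outer membrane of the mitochondrion is breached during apoptosis, and 10 of its genes were followed here through blood cells of young and old mice. They were chosen by symbol from the 32285 genes in the files, whatever their values, and both libraries list all 10. The 5 survival genes were Bcl2l1, Mcl1, Bcl2a1b, Bcl2a1d and Bcl2, and the 5 pro-apoptotic genes were Bcl2l11, Pmaip1, Bax, Bbc3 and Bid. The young group was 1 single-cell library from mice aged 2 months and the old group 1 library from mice aged 24 months. All animals were labelled male, and no genotype, strain or treatment was named for either age. The blood of both groups had its red cells lysed, was sorted as live CD45+ CD11b+ Ly6G+ cells, and, by the labels, was captured with the BD Rhapsody microwell system. The file headers name Cell Ranger 7.2.0, software made for another platform, and the barcodes have 16 bases, so the sources do not settle which platform was used. Ly6G marks mouse neutrophils, so the sort sets which other cells are present. How many animals gave each library is not stated, and the stated aim of the series concerns senescent neutrophils in aging.

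Survival members of the family bind and hold back their pro-apoptotic relatives. Bax is a pore former of the outer membrane, and Bid, a BH3-only protein, links death receptors to that step. The other BH3-only proteins followed here, Bim (Bcl2l11), Noxa (Pmaip1) and Puma (Bbc3), engage the survival proteins under stress or loss of growth factor. Neutrophils are short-lived cells whose survival is known to depend on Mcl1, a protein of rapid turnover that Noxa binds. The Bcl2a1 genes encode A1, a relative of Bcl2 that exists in several near-identical copies in the mouse.

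The promoters of 4 genes are printed because the results turn on them: the pair of A1 copies, whose counts are hard to tell apart, and Mcl1 and Bcl2l11, the most abundant survival gene and a pro-apoptotic gene that both differed along neutrophil maturity in each library. All sequences are from RefSeq on GRCm38.p6 and lie before the start of the annotated transcript. The A1 copies lie on chromosome 9, at chr9:89199023-89199164 on the plus strand for Bcl2a1b and chr9:88731915-88732050 on the minus strand for Bcl2a1d. Capitals mark the bases that differ or are present in 1 copy only.
Bcl2a1b: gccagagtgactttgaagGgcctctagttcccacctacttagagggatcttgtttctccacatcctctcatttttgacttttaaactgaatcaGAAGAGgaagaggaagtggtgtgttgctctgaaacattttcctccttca
Bcl2a1d: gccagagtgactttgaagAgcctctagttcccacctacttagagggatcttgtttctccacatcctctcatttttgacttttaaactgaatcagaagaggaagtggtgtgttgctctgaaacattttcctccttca
Over 136 aligned bases these windows were identical at 135, and Bcl2a1b carried 6 bases that Bcl2a1d lacked. The transcripts were as close, with 810 of 817 aligned bases identical (99.1%) and 296 of 298 (99.3%) over the last 300 bases, where the reads of a 3′ assay fall. The split of UMIs between the copies is therefore uncertain, and each value below holds for a copy only as far as the authors' counting could tell them apart.

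The Mcl1 window lies at chr3:95658471-95658720 on the plus strand and the Bcl2l11 window printed here at chr2:128125788-128126037 on the plus strand. Capitals mark matches to the searched motifs.
Mcl1: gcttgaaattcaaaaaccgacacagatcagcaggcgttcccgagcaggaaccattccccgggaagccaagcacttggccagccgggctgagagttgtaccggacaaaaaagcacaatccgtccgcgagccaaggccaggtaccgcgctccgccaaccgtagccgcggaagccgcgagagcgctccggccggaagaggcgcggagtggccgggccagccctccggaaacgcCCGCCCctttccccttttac
Bcl2l11: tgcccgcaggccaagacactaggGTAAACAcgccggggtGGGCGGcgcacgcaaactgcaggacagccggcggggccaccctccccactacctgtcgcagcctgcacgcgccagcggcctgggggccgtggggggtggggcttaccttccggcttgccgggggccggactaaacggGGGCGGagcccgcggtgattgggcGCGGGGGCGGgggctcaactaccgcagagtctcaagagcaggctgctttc
The Mcl1 window held 1 GC box (GGGCGG, read on both strands). The printed Bcl2l11 window held GC boxes, a match to the FOXO letters TGTTTAC and, near its 3′ end, an EGR match (GCGGGGGCG) that overlaps a GC box. A further Bcl2l11 window, at chr2:128127325-128127574 and not printed, held GC boxes and no other searched motif. Windows of 250 bases before the start were searched for 9 members, 14 windows in all. Pmaip1 was left out of this search, so its promoter is not described here. A GC box was present in 11 of the 14 windows, from 8 of the 9 members, against 32.7% of 32851 windows in the genome. FOXO and EGR matches were each present in Bbc3 and Bcl2l11, against 3.17% and 2.57% of all windows. An AP-1 match (TGANTCA) was present in Bcl2a1b and Bcl2a1d, against 6.75%. A C/EBP match (TTNNGCAA) was present in Bid, against 9.56%, and an E-box (CACGTG) in Bax and Bbc3, against 6.02%. CRE (TGACGTCA), NF-kB and STAT (TTCNNNGAA) letters were not in these windows. These matches describe letters only.

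All 10 genes are annotated as protein coding on GRCm38. Among the survival genes, Bcl2l1 lies at chr2:152780668-152831728 on the minus strand, Mcl1 at chr3:95658788-95663176 on the plus strand and Bcl2 at chr1:106538178-106714274 on the minus strand. Bcl2a1b lies at chr9:89199209-89207827 on the plus strand and Bcl2a1d at chr9:88723285-88731914 on the minus strand. Among the pro-apoptotic genes, Bcl2l11 lies at chr2:128126038-128162547 on the plus strand, Pmaip1 at chr18:66458533-66465565 on the plus strand and Bax at chr7:45461697-45466898 on the minus strand. Bbc3 lies at chr7:16308393-16318205 on the plus strand and Bid at chr6:120891930-120916853 on the minus strand. Exons of 4 members overlap exons of another gene: Bcl2a1b with Gm29094 and Bax with Gm45808 on the same strand, and Bcl2 with D630008O14Rik and Bid with Bcl2l13 on the opposite strand. How the authors' counting treated strand is not given in the sources used here, so reads of these pairs may not have been told apart.

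Unique molecular identifiers (UMIs) count captured RNA molecules. There were 69599479 over 13599 young barcodes (median 4246) and 128826996 over 14334 old barcodes (median 7265.5). Clustering gave 9879 young and 8757 old neutrophil-like cells, 76.5% and 64.8% of the cells kept, with medians of 4078 and 7447 UMIs. All 10 neutrophil markers reached 20 CPM (UMIs scaled to a total of 1000000) in both. The S100a8 and S100a9 transcripts made up 10.8% of young and 29.5% of old neutrophil-like UMIs, which leaves less of that total for other genes. The libraries filled different clusters: clusters 0, 2 and 5 held most young neutrophil-like cells (5904, 2126 and 1409) and clusters 1 and 3 most old ones (4779 and 2121). Barcodes were shared by both libraries in 53 cases. Against the male label, Xist stood at 160.4 and 210.1 CPM and the Y-linked Eif2s3y had 0 UMIs in both libraries, while the Y-linked Ddx3y had 1329 and 967 UMIs. With 1 library per age there is no test between ages, and every difference describes these 2 libraries. Values in parentheses give the 95% range from counting, by exact Poisson limits (CPM), exact conditional binomial limits (ratios) or exact Clopper-Pearson limits (shares). They cover counting error only.

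Mcl1 was the dominant survival transcript of neutrophil-like cells and, in CPM, stood higher there than in any other named class of either library. In UMIs per cell it was higher in the deeper classical monocyte-like cells, at 10.6 against 8.71 young and 14.1 against 11.9 old. It stood at 1939 CPM (1926 to 1952) in young and 1363 CPM (1355 to 1371) in old neutrophil-like cells. In the other classes it ranged from 352 CPM in T cell-like to 798 CPM in non-classical monocyte-like cells in the young library. Old levels ranged from 365 CPM in NK cell-like to 898 CPM in non-classical monocyte-like cells. The young neutrophil-like level was 5.51-fold (5.11 to 5.96) that of T cell-like cells and 2.43-fold (2.35 to 2.51) that of non-classical monocyte-like cells. The same ratios in the old library were 2.996-fold (2.80 to 3.21) and 1.52-fold (1.47 to 1.56). Erythroid-like cells carried 4.68 and 3.24 Mcl1 UMIs per cell. Their S100a8 transcripts, a neutrophil product, stood at 46.4% and 22.9% of the neutrophil level, and the same share of the neutrophil Mcl1 level would give 4.04 and 2.72. The erythroid-like Mcl1 level is thus close to what free neutrophil RNA would give at that share. By their own S100a8 shares, T cell-like cells would hold 1.22 of 3.55 Mcl1 UMIs per cell young and 2.15 of 4.86 old. Non-classical monocyte-like cells would hold 2.82 of 8.66 young and 4.17 of 9.95 old. The part of free RNA in the Mcl1 ratios between classes was not tested.

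Bcl2 itself, the founding survival gene, was nearly absent from neutrophil-like cells and abundant in lymphoid and non-classical monocyte-like cells. Its level was 2.71 CPM (2.24 to 3.23) in young and 1.86 CPM (1.56 to 2.19) in old neutrophil-like cells. In the young library it reached 620 CPM in NK cell-like, 511 CPM in non-classical monocyte-like, 366 CPM in B cell-like and 359 CPM in T cell-like cells. Old levels reached 871 CPM in T cell-like, 775 CPM in NK cell-like, 373 CPM in non-classical monocyte-like and 324 CPM in B cell-like cells. Old NK cell-like cells numbered 26. Classical monocyte-like cells lay between, with 42.4 CPM young and 14.2 CPM old. The neutrophil-like level was 189-fold lower than the non-classical monocyte-like one in the young library and 201-fold lower in the old. Erythroid-like cells had 1.70 CPM (0.462 to 4.35) and 1.18 CPM (0.432 to 2.56), not different from the neutrophil-like levels beyond counting error.

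The other survival genes each had their own class. Bcl2l1, which encodes Bcl-xL, stood highest in platelet-like cells, at 294 CPM (252 to 342) young and 179 CPM (153 to 208) old, and platelets are known to rely on Bcl-xL. Erythroid-like cells carried 0.447 and 0.753 Bcl2l1 UMIs per cell, against 0.0821 and 0.154 at the S100a8 share, so their Bcl2l1 lay above that free RNA level. Bcl2a1b and Bcl2a1d stood highest in non-classical monocyte-like cells, at 168 and 110.5 CPM young and 158 and 105 CPM old. In neutrophil-like cells Bcl2a1b stood at 19.8 and 4.77 CPM and Bcl2a1d at 4.78 and 0.771 CPM.

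Among the pro-apoptotic genes, Bid was high in CPM in neutrophil-like and platelet-like cells, and Bax was low in neutrophil-like cells of both libraries. In UMIs per cell Bid was higher in classical monocyte-like cells (0.758 young, 0.807 old) than in neutrophil-like cells (0.435 and 0.437). Bid stood at 96.8 CPM (93.9 to 99.7) in young neutrophil-like cells, with 88.8 CPM (66.1 to 117) in platelet-like cells and 19.1 to 52.1 CPM in the other classes. The first of these did not differ from the second beyond counting error. In the old library the platelet-like level of 56.7 CPM (42.5 to 74.1) and the neutrophil-like level of 49.98 CPM (48.4 to 51.6) did not differ beyond counting error. Bax stood at 18.1 CPM (16.8 to 19.4) and 10.8 CPM (10.04 to 11.5) in neutrophil-like cells. In classical and non-classical monocyte-like, B, T and NK cell-like cells it stood between 71.3 and 129.7 CPM in both libraries. The neutrophil-like Bax level was 5.09-fold lower than the non-classical monocyte-like one in the young library and 6.63-fold lower in the old.

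The other 3 BH3-only genes, Bcl2l11, Pmaip1 and Bbc3, differed in where they were highest. Pmaip1 was highest in non-classical monocyte-like cells of both libraries, at 87.6 and 53.4 CPM, with young neutrophil-like cells at 64.5 CPM and young classical monocyte-like cells at 56.2 CPM (47.7 to 65.9). Old neutrophil-like cells stood at 5.71 CPM. Bcl2l11 was highest in young NK cell-like cells at 94.5 CPM, with neutrophil-like cells at 66.8 CPM. In the old library, NK cell-like cells stood at 98.4 CPM (57.3 to 158) and T and classical monocyte-like cells at 56.0 and 55.7 CPM, against 27.2 CPM in neutrophil-like cells. Bbc3 was highest in young platelet-like cells at 88.8 CPM, from 51 UMIs, and stood at 13.3 and 7.51 CPM in neutrophil-like cells.

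**Figure D1:**
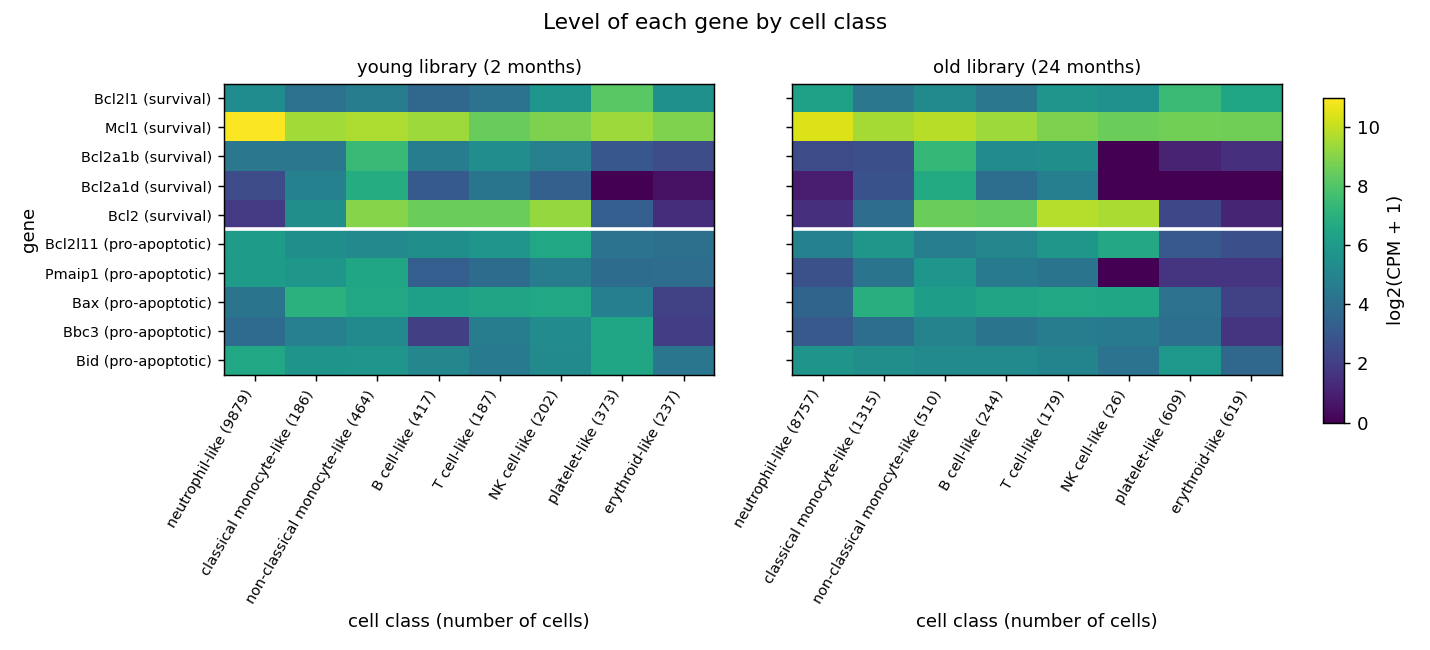
Heat maps of log2(CPM + 1) for the 10 genes (rows, survival genes above the white line) in 8 cell classes (columns, number of cells in parentheses) of the young and old libraries. Mcl1 is the brightest gene of neutrophil-like cells, Bcl2 is bright in lymphoid and non-classical monocyte-like cells and dark in neutrophil-like cells, and Bcl2l1 is brightest in platelet-like cells.

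Comparing old with young neutrophil-like cells, which the series was made for, Bcl2l1 was higher in the old library, and most other members were lower in CPM. Bcl2l1 stood at 39.4 CPM (37.6 to 41.3) young and 76.9 CPM (75.0 to 78.9) old, a ratio of 1.95 (1.85 to 2.06). Pmaip1 stood at 64.5 CPM (62.2 to 66.9) young and 5.71 CPM (5.19 to 6.27) old, which is 11.3-fold lower. Bcl2a1b was 4.16-fold lower and Bcl2l11, at 66.8 and 27.2 CPM, 2.45-fold lower. Of the 8 members at 5 CPM or more in the mean, 1 was higher and 6 were lower by 1.5-fold or more, on log2(CPM + 1). Over 7184 genes at that level 7.56% were higher and 50.8% were lower, so the lower count is read against a background in which lower is the common state. The median member stood at -0.84 log2 and the median of all these genes at -0.60.

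The whole profile was shifted towards lower CPM in the old library. The median gene, over genes at 50 CPM or more, stood at -0.68 log2. Relative to it, Bcl2l1 stood at 1.63, Mcl1 at 0.17, Bax at -0.02, Bbc3 at -0.07 and Bid at -0.26. Bcl2a1b at -1.17 and Pmaip1 at -2.61 remained past 1.5-fold, and Bcl2l11 at -0.59 passed that limit only barely. With Bcl2l11 counted, 1 member was higher and 3 were lower, against 23.8% and 12.5% of genes. Counted as UMIs per cell, which are higher in the deeper old library, Bcl2l1 went from 0.177 to 0.672 and Pmaip1 from 0.290 to 0.0499. On that scale the direction flipped for Mcl1 (8.71 and 11.9 UMIs per cell), Bax (0.0811 and 0.0941), Bbc3 (0.0596 and 0.0657), Bcl2 (0.0121 and 0.0162) and, barely, Bid (0.435 and 0.437). Among the 8 members at the floor, Bcl2l1 (higher) and Pmaip1, Bcl2a1b and Bcl2l11 (lower) had the same direction in CPM, relative to the median gene and in UMIs per cell. The clusters that each library filled moved with these values: when only the 5 clusters that held 100 or more cells of both ages were summed, the Bcl2l1 log2 ratio was 0.28 and no member was higher by 1.5-fold. As the mean of the log2 ratios within those clusters it was 0.78, for Pmaip1 that mean was -0.71, and for Bcl2l11 it was 0.34, the opposite direction. The Bcl2l11 mean includes cluster 3, where the gene rested on 5 young UMIs. In clusters 0 and 5 Bcl2l11 was lower in the old library, at 65.8 and 55.9 CPM and at 66.2 and 59.8 CPM. It was higher in clusters 2, 3 and 7.

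**Figure D2:**
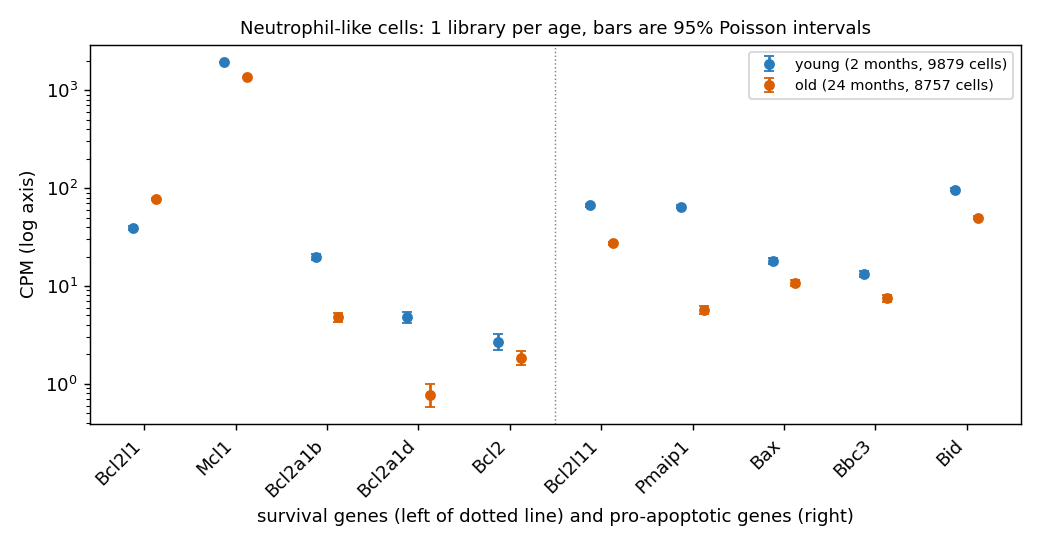
CPM (log axis) of the 10 genes in young (blue) and old (orange) neutrophil-like cells, 1 library each, with 95% Poisson intervals. Bcl2l1 lies higher in the old library and Pmaip1 furthest below its young level; Mcl1, Bax, Bbc3, Bcl2 and Bid lie lower in CPM but not in UMIs per cell.

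Platelet and erythroid transcripts in neutrophil-like cells moved in the same direction as Bcl2l1. All 10 platelet markers were detected there, summing to 118 CPM young and 198 CPM old, against 44871 and 63452 CPM in platelet-like cells. The 10 erythroid markers summed to 1959 and 2340 CPM, against 752740 and 708856 CPM in erythroid-like cells. With the 217 young and 382 old cells left out that had 0.5% or more of their UMIs from lymphoid, platelet or erythroid markers, the Bcl2l1 log2 ratio was 0.93, against 0.95. For Pmaip1 it was -3.30, against -3.29. Summed B cell markers went the other way, from 105 to 36.7 CPM, as did T cell markers, from 23.2 to 10.8 CPM, and none of these 10-marker lists had a marker at 0. Classical monocyte markers summed to 949 and 2007 CPM, with all 8 detected, and that list shares Chil3 with the immature neutrophil list. Neutrophil progenitor markers summed to 8.21 and 20.4 CPM, with Mpo and Ctsg at 0 in the young library. The part of the monocyte and progenitor transcripts in these differences was not tested.

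To compare cells of like maturity, neutrophil-like cells were divided by the share of their UMIs from 8 immature neutrophil markers, mostly proteins of the specific granules such as Ltf, Camp and Ngp. The ranges were under 0.5% (low, the mature end), 0.5% to 2% (middle) and 2% or more (high). They held 9341, 464 and 74 young cells and 2293, 4342 and 2122 old cells, so the libraries differ in maturity by this measure. The other classes carried these transcripts too, at 0.0172% (T cell-like) to 0.166% (classical monocyte-like) of young UMIs. In the old library this was 0.108% (NK cell-like) to 1.22% (non-classical monocyte-like). The same range may thus not mean the same maturity in both libraries, and the part of free RNA in the ranges was not tested. A range is a stretch of a continuous score: 451 young and 1099 old cells lay within 20% of the lower limit, and 22 and 813 of the upper. In all ranges of both libraries the median cell had none of its UMIs from T, NK, B, dendritic cell or neutrophil progenitor markers. The median cell had 0.0912% to 0.180% of its UMIs from erythroid, 0.0215% to 0.0720% from non-classical monocyte and at most 0.01235% from platelet markers.

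Within the low range the pro-apoptotic genes other than Pmaip1 stayed within 1.5-fold between libraries, and Bcl2l1 was again higher in the old one. Bcl2l1 stood at 39.2 CPM (37.3 to 41.2) young and 89.2 CPM (83.5 to 95.1) old, a ratio of 2.27 (2.09 to 2.47). Pmaip1 stood at 68.8 CPM (66.3 to 71.4) and 25.6 CPM (22.6 to 28.9), 2.68-fold lower, against 11.3-fold over all neutrophil-like cells. Bcl2l11 stood at 69.5 and 62.9 CPM, Bax at 18.9 and 18.1 and Bbc3 at 13.6 and 11.5. Bid was lower in the old library beyond counting error, at 98.7 CPM (95.7 to 101.8) and 75.3 CPM (70.1 to 80.8). In UMIs per cell it stood at 0.432 young and 0.338 old. Mcl1 stood at 1997 CPM young and 2183 CPM old. Of 8 members at the floor, 1 was higher and 1 lower by 1.5-fold, against 4.29% higher and 15.1% lower of all genes in this range. These counts were the same relative to the median gene, which stood at -0.25, against 7.68% and 5.02% of genes.

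In the middle range Bcl2l1 stood at 44.9 CPM young and 109.7 CPM old, a ratio of 2.44 (2.03 to 2.96), and Pmaip1 at 16.6 and 3.52 CPM, 4.72-fold lower. Bcl2a1b was 2.36-fold lower, from 26 young UMIs (ratio 0.423, 0.277 to 0.670), and the other 5 members at the floor stayed within 1.5-fold. This gave 1 member higher and 2 lower, against 6.79% and 25.3% of genes. In the high range the young library had only 74 cells. Mcl1 stood there at 487 CPM (441 to 537) young and 775 CPM (765 to 785) old, a ratio of 1.59 (1.44 to 1.76), while Bcl2l1 stood at 31.7 CPM (20.7 to 46.4) and 36.9 CPM (34.8 to 39.0). Bcl2l11 rested on 2 young UMIs, with a ratio of 4.32 (1.19 to 35.8). Of 6 members at the floor 2 (Mcl1 and Bcl2l11) were higher and 1 (Bbc3, from 7 young UMIs) was lower, against 8.32% and 28.7% of genes, and with range limits of 0.25% and 1% neither count had a member.

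Along maturity, most of the family was lower in CPM in immature cells than in mature ones of the same library, and 4 genes (Bcl2l11, Pmaip1, Bcl2a1b and the scarce Bcl2a1d) also in UMIs per cell in both libraries. From the low to the high range Mcl1 went from 1997 to 487 CPM in the young library, 4.10-fold lower, and from 2183 to 775 CPM in the old, 2.82-fold lower. Bcl2l11, the gene of Bim, went from 69.5 to 2.44 CPM young (2 UMIs) and from 62.9 to 10.52 CPM old. Pmaip1 went from 68.8 to 4.87 CPM young and from 25.6 to 1.62 CPM old, 14.1-fold and 15.9-fold lower. Bcl2a1b went from 20.9 to 1.22 CPM young (1 UMI) and from 16.3 to 1.68 CPM old. Of 8 members at the floor 7 were lower in the young library and all 8 in the old, against 47.0% and 48.3% of genes. None was higher, against 15.1% and 10.7%.

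Immature cells held more UMIs, with medians of 10639.5 young and 13847 old against 4037 and 4104 in the low range, and S100a8 and S100a9 made up 31.5% and 36.3% of them. Relative to the median gene, at -0.62 and -0.70, 5 members were lower among young cells and 4 among old cells, against 24.7% and 18.0% of genes, and none was higher, against 30.1% and 29.9%. Bcl2l11, Pmaip1, Bcl2a1b and Mcl1 were among them in both. As UMIs per cell Bcl2l11 (0.283 low, 0.156 high in the old library), Pmaip1 (0.115 and 0.0240) and Bcl2a1b (0.0733 and 0.0250) were still lower in immature cells of both libraries. The old direction flipped on that scale for Mcl1 (9.80 and 11.5), Bcl2l1 (0.400 and 0.549), Bax (0.0811 and 0.155), Bbc3 (0.0515 and 0.0707) and Bid (0.338 and 0.499). In the young library Mcl1 was lower per cell as well, at 8.74 and 5.41, while Bcl2l1 (0.172 and 0.351), Bax (0.0825 and 0.0946) and Bbc3 (0.0595 and 0.0946) flipped.

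Finer ranges showed the form of these differences. Mcl1 in the old library stood at 2307, 2127, 1842, 1495, 1042 and 556 CPM from under 0.25% to 5% or more of immature transcripts. In the young library it stood at 2017, 1869, 1592, 1173, 750.4 and 334 CPM, below the old level in every range. Bcl2l1 did not follow this order. Old Bcl2l1 was highest in the 0.5% to 1% range, at 122.9 CPM, with 74.1 CPM under 0.25% and 24.8 CPM at 5% or more. Young Bcl2l1 stood between 38.4 and 56.0 CPM in the 5 ranges under 5%. Pmaip1 in the young library stood at 75.3 CPM under 0.25% and 27.3 CPM in the next range, and in the old at 46.7 and 15.9 CPM. The 2 ranges from 2% upwards held 31 and 43 young cells.

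**Figure D3:**
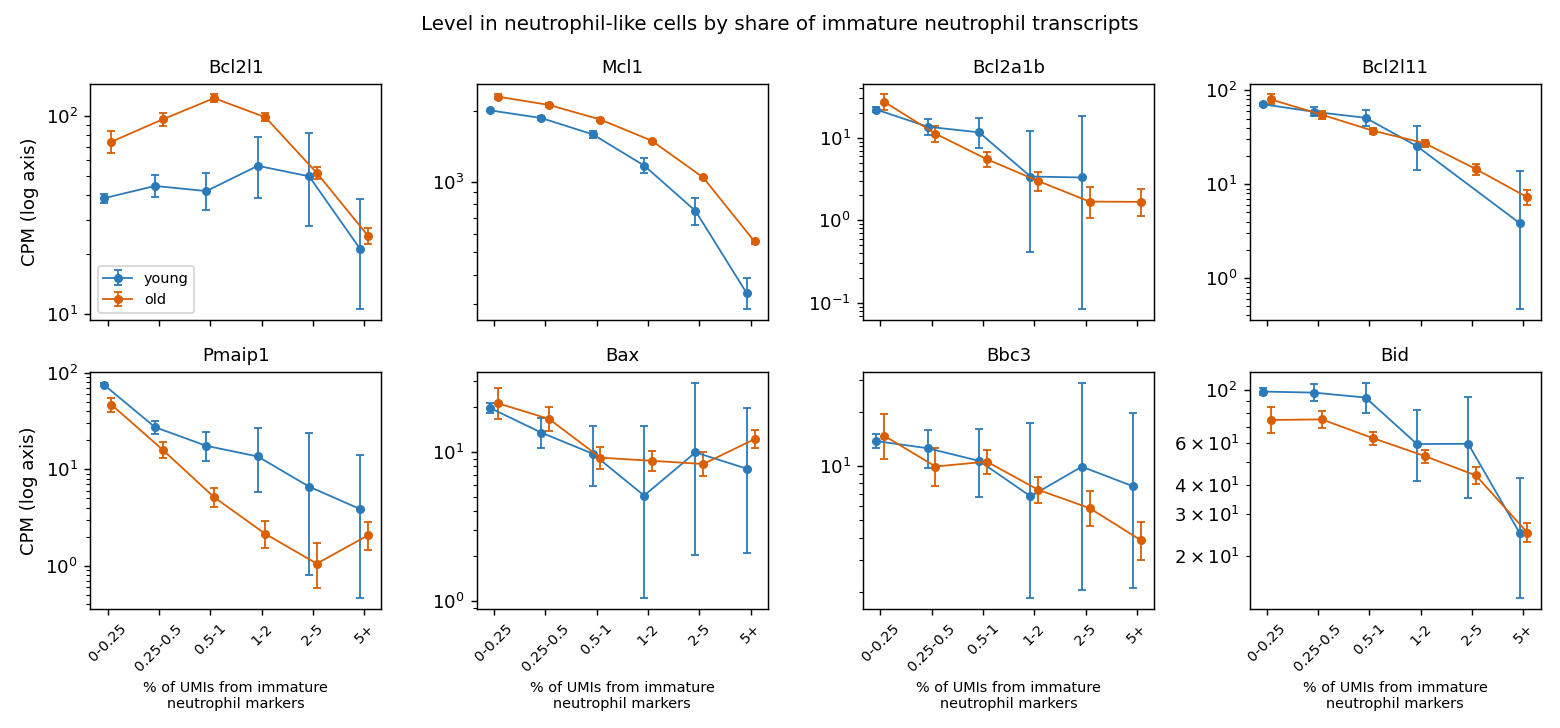
CPM (log axis, scales differ between panels) of 8 genes in neutrophil-like cells by percent of UMIs from immature neutrophil markers, young blue and old orange, with 95% Poisson intervals; ranges with 0 UMIs are not drawn. Mcl1, Bcl2l11 and Pmaip1 are lower in CPM towards the immature end, though Mcl1 in the old library is not lower in UMIs per cell, and old Bcl2l1 is highest at 0.5% to 1%.

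The clusters of neutrophil-like cells, made without the 10 genes, gave a second view. Clusters 0 (led by Sugct, Cd101 and Jaml), 2 (Chn2, Clec4n, Csf1), 5 (interferon-stimulated, Ifit3 and Rsad2), 7 (Cxcl2, Ptgs2) and 3 (immature, Ltf and Camp) held 100 or more cells of both ages. Cluster 2 was taken up because its Pmaip1 was highest, so its Pmaip1 level is a description. Its Pmaip1 level was 158 CPM (150 to 166) in 2126 young cells and 122 CPM (92.9 to 157) in 148 old cells, against 39.4 and 30.4 CPM in cluster 0. The ratio of cluster 2 to cluster 0 was 4.01 in both libraries (3.69 to 4.34 young, 2.74 to 5.87 old). Bcl2a1b, at 36.9 against 15.1 CPM young and 50.7 against 17.9 CPM old, and Bax, at 29.7 against 15.4 CPM young and 60.8 against 13.6 CPM old, were higher in cluster 2 as well. Bcl2l1 was lower there in CPM, at 33.5 against 42.6 CPM young and 36.5 against 75.4 CPM old. Leaving out Pmaip1, of 8 members at the floor 3 were higher and none lower in cluster 2 of the young library, against 14.9% and 1.53% of genes. The old library had 5 higher and 1 lower of 8, against 28.2% and 7.11%.

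Within a cluster, the Pmaip1 difference between libraries was smaller than the 11.3-fold over all neutrophil-like cells, and it varied between clusters. It was 1.30-fold lower in the old library in clusters 0 and 2, 1.83-fold lower in cluster 5 and 1.21-fold lower in cluster 7, with intervals of the ratio that reach 1 in clusters 0 and 7. In the immature cluster 3 it stood at 7.53 CPM (9 UMIs) young and 1.65 CPM old, 4.57-fold lower. Bcl2l11 lay within 1.5-fold in clusters 0 and 7, at 65.8 and 55.9 CPM and at 63.9 and 71.1 CPM. In cluster 2 it was higher in the old library, at 78.9 against 129.8 CPM, as were Bax and Bcl2a1d, which gave 3 members higher and none lower of 9, against 10.7% and 15.6% of genes. Cluster 1, with 85 young and 4779 old cells, had Pmaip1 at 20.7 CPM (9.92 to 38.0, 10 UMIs) young and 3.55 CPM (2.97 to 4.21) old, 5.83-fold lower. In cluster 15, with 91 young and 46 old cells, Pmaip1 was 4.15-fold lower, from 10 young and 2 old UMIs, with a ratio interval of 0.0257 to 1.13. Clusters 1 and 3, where these differences were larger than in clusters 0, 2, 5 and 7, held most old cells.

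Bcl2l1, by contrast, was higher in the old library within 3 of the 5 clusters. It stood at 42.6 and 75.4 CPM in cluster 0, a ratio of 1.77 (1.47 to 2.11), at 35.8 and 89.7 CPM in cluster 5, 2.50 (1.93 to 3.22), and at 38.6 and 118 CPM in cluster 7, 3.05 (2.05 to 4.71). In cluster 2 the levels were 33.5 and 36.5 CPM and in cluster 3 they were 34.3 and 36.3 CPM, with ratios of 1.09 (0.638 to 1.75) and 1.06 (0.775 to 1.48). Clusters 1 and 15, outside these 5, also had higher Bcl2l1 in the old library. The levels were 55.8 CPM (36.8 to 81.3, 27 UMIs) and 107 CPM (104 to 111) in cluster 1. In cluster 15 they were 22.5 CPM (10.8 to 41.4, 10 UMIs) and 73.2 CPM (48.3 to 107, 27 UMIs). In cluster 0, 1 of 8 members was higher and 1 (Bbc3, from 17 old UMIs) lower, against 4.34% and 8.77% of genes. In cluster 5, 1 of 9 was higher and 4 were lower, against 6.60% and 23.4%. In cluster 7, 1 of 8 was higher and none lower, against 8.79% and 17.6%. In cluster 3, 1 of 6 (Bcl2l11, from 5 young UMIs) was higher and none lower, against 7.61% and 31.0%. Mcl1 stood higher in CPM in the old library in all 5 clusters, by 1.04-fold to 1.19-fold, but lower in UMIs per cell in clusters 0 (8.66 and 8.40) and 2 (8.59 and 7.51). Bid was lower in CPM in the old library in all 5, from 1.15-fold in cluster 2 to 1.59-fold in cluster 5, but higher in UMIs per cell in cluster 3 (0.461 and 0.493).

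**Figure D4:**
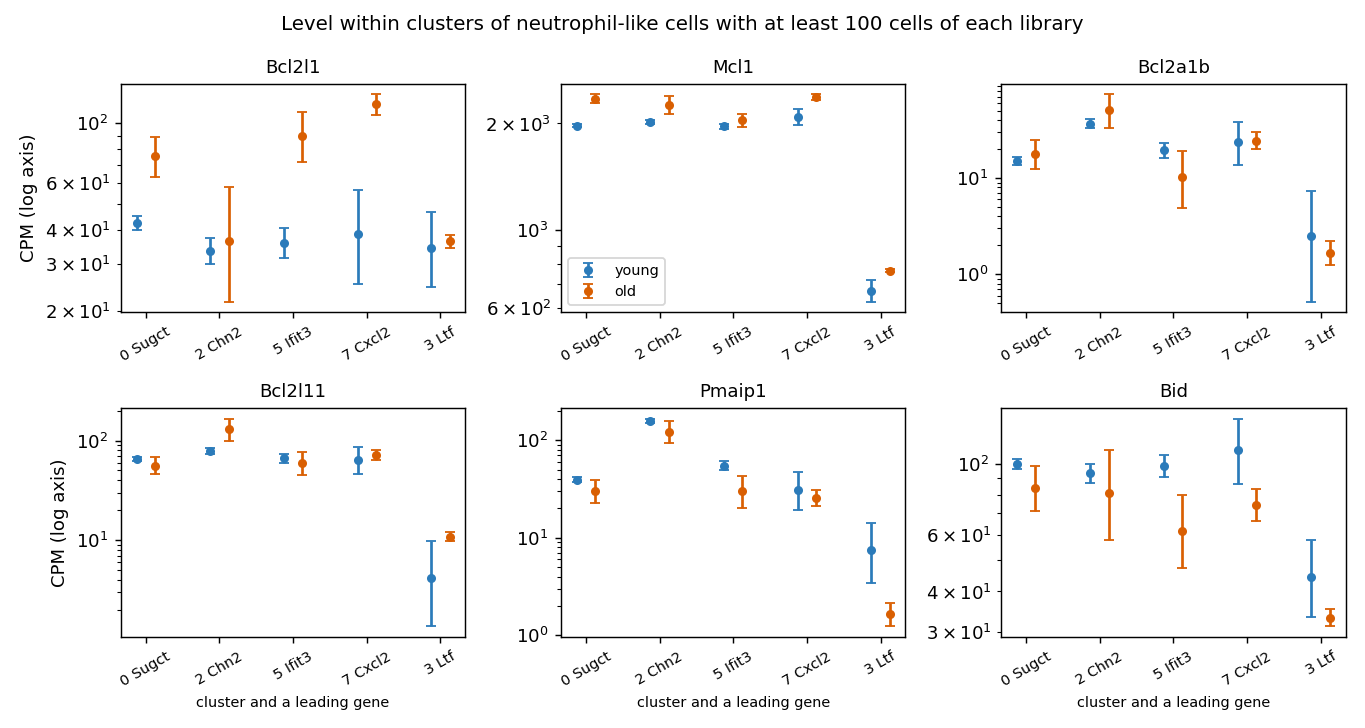
CPM (log axis, scales differ between panels) of 6 genes in 5 clusters of neutrophil-like cells, labelled by number and a leading gene, young blue and old orange, with 95% Poisson intervals. Pmaip1 is highest in cluster 2 of both libraries, and Bcl2l1 is higher in the old library in clusters 0, 5 and 7 but not in clusters 2 and 3.

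The balance of the family was taken as the share of its UMIs that came from the 5 survival genes, which does not depend on the rest of the transcriptome. It counts transcripts, not protein, and Mcl1 made up most of it. In neutrophil-like cells the share was 88.5% (88.3 to 88.7) young, from 88974 survival and 11507 pro-apoptotic UMIs, and 93.5% (93.3 to 93.6) old, from 110776 and 7746. Mcl1 gave 96.7% and 94.2% of the survival UMIs. Without Mcl1 the share was 20.5% (19.8 to 21.1) young and 45.4% (44.6 to 46.3) old. Bcl2l1 gave 1.96% of survival UMIs young and 5.31% old. Of pro-apoptotic UMIs, Pmaip1 gave 24.9% young and 5.64% old, and Bid 37.3% and 49.4%. For every 100 Mcl1 UMIs there were 3.33 Pmaip1 UMIs young and 0.419 old, and 3.44 and 2.00 of Bcl2l11.

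Cells of the same range kept part of this difference. In the low range the survival share was 88.5% (88.3 to 88.7) young and 92.2% (91.9 to 92.5) old, in the middle range 90.4% (89.5 to 91.2) and 94.1% (93.9 to 94.3), and in the high range 89.4% (86.3 to 92.0) and 93.1% (92.8 to 93.4). Within clusters it was 89.7% and 92.7% in cluster 0, 89.2% and 92.3% in cluster 5 and 90.4% and 92.9% in cluster 7. In cluster 2 the shares of 84.9% (84.5 to 85.4) and 85.1% (83.1 to 87.0) did not differ beyond counting error, and these were the lowest of the 7 neutrophil-like clusters in each library. Cluster 2 was taken up for its high Pmaip1, and Pmaip1 UMIs count in this share. Its low share follows in part from that choice and is a description.

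The other classes varied in this share and in how much of it Mcl1 gave. In T cell-like cells the survival share was 79.7% (77.8 to 81.5) young and 86.7% (85.5 to 87.9) old, and Mcl1 gave only 44.7% and 31.4% of the survival UMIs. In non-classical monocyte-like cells it was 84.2% and 87.9%, with 49.5% and 57.2% from Mcl1. Classical monocyte-like cells had the lowest shares, 72.8% young and 75.8% old, with 87.2% and 94.2% of survival UMIs from Mcl1. Erythroid-like cells, whose Mcl1 lay near the free RNA level, had 90.4% and 95.1%, with 90.0% and 80.6% from Mcl1. The classical monocyte-like cluster is mixed. Its 186 young cells carried the dendritic cell genes H2-Aa and Cd74 at 1057 and 2588 CPM. In its 1315 old cells these stood at 252 and 717 CPM, so its ages were not compared further. Without Mcl1 the share was 67.2% to 81.7% in non-classical monocyte-like, B and T cell-like cells of both libraries, against 20.5% and 45.4% in neutrophil-like cells. The part of free neutrophil RNA in the shares of the other classes was not tested.

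**Figure D5:**
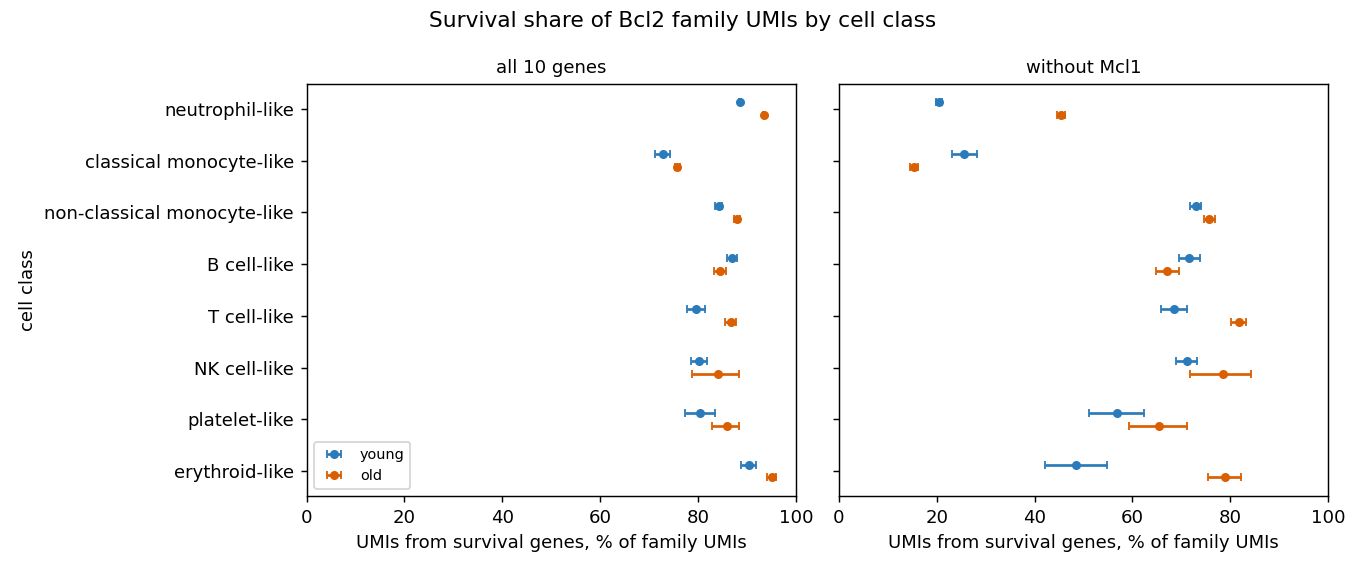
Percent of Bcl2 family UMIs from the 5 survival genes by cell class, with all 10 genes (left) and without Mcl1 (right), young blue and old orange, with 95% Clopper-Pearson intervals. With Mcl1 all classes lie between 72.8% and 95.1%, and without it neutrophil-like and classical monocyte-like cells lie below 50% in both libraries.

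The share of cells with a UMI was taken after thinning each cell to 1000 UMIs, since depth differs. Mcl1 was detected in 84.2% (83.5 to 84.9) of young and 75.8% (74.9 to 76.7) of old neutrophil-like cells, and in 30.9% and 21.2% of erythroid-like cells, which should hold little of it. Before thinning it was in 99.5% and 99.6% of neutrophil-like cells. Bcl2l1 was detected in 3.65% (3.28 to 4.04) of young and 8.24% (7.67 to 8.84) of old neutrophil-like cells, and before thinning in 13.3% and 38.4%. In B cell-like cells, at median depths of 6390 and 8668 UMIs, the thinned shares for Bcl2l1 were 2.40% (1.16 to 4.37) and 1.64% (0.448 to 4.14). In erythroid-like cells, which carried Bcl2l1 above the free RNA level, they were 6.78% and 8.47%. Pmaip1 was detected in 6.62% (6.14 to 7.13) and 0.976% (0.780 to 1.21), against 1.27% and 0.326% of erythroid-like cells, and before thinning in 19.97% and 4.21%. Bcl2 was detected in 0.265% and 0.264% of neutrophil-like cells. In erythroid-like cells, at median depths of 9954 and 7448 UMIs, it was 0 of 236 young and 0 of 614 old cells. By the floor of 3 counts this allows a share of cells with a UMI of up to 1.27% and 0.489%, and the Clopper-Pearson upper limits are 1.55% and 0.599%, so a difference from background was not detectable for Bcl2 at this depth.

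Survival genes of lymphoid cells also differed between the libraries. Bcl2 in T cell-like cells stood at 359 CPM (332 to 387) young and 871 CPM (830 to 914) old, a ratio of 2.43 (2.22 to 2.66), in 187 and 179 cells with median depths of 8843 and 8912 UMIs. Bcl2l1 in the same cells stood at 17.5 CPM (12.04 to 24.6) and 53.3 CPM (43.5 to 64.7). In B cell-like cells Bcl2 stood at 366 and 324 CPM, while the scarcer Bcl2l1, Bcl2a1b and Bcl2a1d were higher in the old library. So were the pro-apoptotic genes Pmaip1 (8.69 and 22.0 CPM) and Bbc3 (3.22 and 17.5 CPM). The B cell-like survival share was lower in the old library, at 87.0% (85.9 to 88.0) young and 84.6% (83.3 to 85.8) old. The share of all genes past 1.5-fold in B cell-like cells is not given here. Bcl2l1 had a ratio of 1.62 (1.05 to 2.52) there, Bcl2a1b of 1.63 (1.20 to 2.24) and Bcl2a1d of 1.93 (1.14 to 3.35). B cell-like Bcl2l1 stood at 0.0911 and 0.217 UMIs per cell, against 0.0358 and 0.119 at the S100a8 share of the neutrophil level. The part of free neutrophil RNA in its ratio was not tested. The subtypes of T cell-like cells were not resolved, and the part of a different mix of them was not tested.

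The genes around the family were taken from 6 lists of 60 genes. In neutrophil-like cells their counts stand against 7.56% of all genes higher and 50.8% lower, and relative to the median gene against 23.8% higher and 12.5% lower. Of 9 measured p53 and stress genes 9 were lower and none higher, 3 of them lower relative to the median gene. Egr1, an immediate early transcription factor, stood at 74.9 and 5.85 CPM, Ddit3 (Chop) at 76.4 and 25.6 CPM and Foxo3, a known activator of Bcl2l11, at 364 and 160 CPM. Within the low range these were 78.9 and 23.6, 79.3 and 55.2, and 372 and 271 CPM. Of 10 survival cytokine receptor and signalling genes 6 were lower and none higher. Csf3r, the receptor of G-CSF, stood at 4730 and 1617 CPM, Il6ra at 402 and 162 CPM and Jak2 at 174 and 62.7 CPM. Relative to the median gene 3 of the 10 were lower, against 12.5% of all genes, and 2 higher, against 23.8%.

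Of 5 genes that govern Mcl1 turnover or transcription 4 were lower and none higher, and relative to the median gene 1 was lower. The ubiquitin ligase Huwe1 stood at 63.2 and 24.0 CPM, the ligase subunit Fbxw7 at 151 and 69.8 CPM and the deubiquitinase Usp9x at 106 and 61.9 CPM. Of 6 inhibitors of apoptosis and their antagonists 5 were lower, with Xiap at 149 and 94.0 CPM and Birc3 at 215 and 128 CPM, and none lay past 1.5-fold relative to the median gene. Of 8 death receptor genes 4 were lower, with Fas at 142 and 76.7 CPM and Tnfrsf1b at 181 and 77.9 CPM. Relative to the median gene 1 of these 8 was higher, against 23.8% of all genes, and none lower, against 12.5%.

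Of 7 other Bcl2 family genes 3 were lower and none higher, and relative to the median gene 2 lay on each side. Bak1, the other pore former, stood at 20.9 CPM young and 22.3 CPM old, and Bad at 21.4 and 28.7 CPM. A further A1 copy outside the naming rule, Bcl2a1a, whose transcript matched that of Bcl2a1b at 802 of 817 bases, stood at 8.75 and 1.58 CPM and so lay lower in CPM in the old library, as both other copies did.

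The genes most alike to each member were sought by Pearson correlation of log2(CPM + 1) over 15 sums of a class in a library, among 5862 genes. These sums share libraries and class make-up, so the values describe the pattern only. Mcl1 was most like Kdm6b, Kctd12 and Tirap (r of 0.96, 0.95 and 0.95) and Bcl2l1 most like Gabarapl2, Nt5c3 and Gclm (0.89, 0.87 and 0.86). Pmaip1 was most like Fkbp5 (0.92), Bcl2l11 like Arl15 (0.96), Bid like Pcyt1a (0.96), Bcl2 like Maml2 (0.97), Bbc3 like Nab1 (0.89) and Bax like Eif3a (0.99). The A1 copies were most like Phlpp1 (0.91, Bcl2a1b) and Ripk2 (0.95, Bcl2a1d).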

How the data were processed

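The deposited gene-by-barcode matrices hold UMI counts per gene, made by the authors with Cell Ranger 7.2.0 per the file headers, on build mm10 per the submitters' processing notes. The annotation release and the rule that called cells are not given in the sources used here. Barcodes under 200 genes or over 20% mitochondrial UMIs were dropped and the rest clustered with scanpy 1.11.5 (2000 variable genes less 8 that are members or list genes, 30 components, 15 neighbours, Leiden resolution 0.6, leidenalg 0.10.2) under Python 3.11.15, with scikit-learn 1.9.0, scipy 1.17.1 and matplotlib 3.10.9. Clusters were named from marker lists, and 4 clusters (976 young and 1258 old cells) stayed unnamed and outside the neutrophil-like class. Cluster 4 (886 and 818 cells) had all 10 neutrophil markers but platelet genes in the lead, 2 clusters had under 20 cells, and cluster 12 was led by genes under 100 CPM, a limit set after seeing the data. No doublet caller was run, and possible doublets were left out as an alternative. UMIs were summed per class and library as CPM, ratios taken on log2(CPM + 1), and 1.5-fold called where the mean of both sides reached 5 CPM. Depth differs between the libraries, and the intervals reflect counting error alone. The 10 members and up to 5 genes of each list (mean of 20 CPM or higher, ordered by their ratio) were named. A list of apoptosome and caspase genes is not reported here. Members and lists were chosen with earlier results of these data known. The scripts were tested on simulated data. Alternatives covered filters, resolutions, scalings, pseudocounts, thinning and range limits.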

Additional observations from a re-analysis of the deposited data

Results flagged for a closer look

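Bcl2l1 lay higher in the old library in several classes and lower in platelet-like cells. Its log2 ratio of old to young was 0.95 in neutrophil-like, 1.56 in T cell-like, 0.65 in B cell-like and 1.01 in erythroid-like cells, and -0.72 in platelet-like cells. The B cell-like levels were 0.0911 and 0.217 UMIs per cell, against 0.0358 and 0.119 at the S100a8 share of the neutrophil level. Bcl2a1b had a log2 ratio of -1.85 in neutrophil-like and 0.69 in B cell-like cells. Pmaip1 had log2 ratios of -3.29 in neutrophil-like, -0.70 in non-classical monocyte-like, -2.25 in platelet-like and -2.29 in erythroid-like cells, against 1.25 in B cell-like cells. Bbc3 had log2 ratios of -0.75 in neutrophil-like and -2.49 in platelet-like cells, against 2.13 in B cell-like cells, from 10 young and 47 old UMIs. These classes moved in opposite directions with 1 library per age, and the difference between classes was not tested. In platelet-like cells the Pmaip1 ratio rests on 8 young and 2 old UMIs, or 0.0214 and 0.00328 UMIs per cell, against 0.0246 and 0.00135 at the S100a8 share of the neutrophil level. In erythroid-like cells the Pmaip1 level was 0.143 UMIs per cell young and 0.0178 old, against 0.134 and 0.0114 at the S100a8 share of the neutrophil level.

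Barcodes removed by the filter also carried the family. In the 678 young ones the survival genes summed to 54.7 CPM (176 UMIs) and the pro-apoptotic genes to 4.66 CPM (15 UMIs). In the 817 old ones they summed to 119 CPM (282 UMIs) and 6.76 CPM (16 UMIs).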

How the results depend on the processing

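Over 391 alternative values, 66 main counts and shares and 158 other values stayed close to the reported value, 26 and 128 moved, and 13 changed direction. In old against young neutrophil-like cells, the 1 member higher became 0 over clusters with 100 or more cells of both ages. The 6 lower became 3 with S100a8, S100a9 and granule genes out of the total, 3 centred on the median gene, 2 in UMIs per cell and 1 as the mean within shared clusters. That mean turned Bcl2l11 to 0.34, with 5 young UMIs in cluster 3, and Bax to 0.13 (log2). UMIs per cell turned Bax to 0.21, Bbc3 to 0.14 and Bid to 0.0074. In the high range, other limits gave 0 higher and 0 lower, and centring 0 lower. For high over low in the young library, UMIs per cell gave 2 higher and 4 lower, with Bax at 0.20 and Bbc3 at 0.67, and centring put Bbc3 at 0.0046. In the old library, centring gave 4 lower, and UMIs per cell gave 1 higher and 3 lower, with Bcl2l1 at 0.45, Mcl1 at 0.23, Bax at 0.93, Bbc3 at 0.46 and Bid at 0.56. The survival share was 20.5% young and 45.4% old without Mcl1, and 88.2% and 93.2% in thinned cells. Centring the lists gave 2 other Bcl2 family genes higher, 0 inhibitors of apoptosis lower, 1 death receptor gene higher and 0 lower, 3 stress genes lower, 2 cytokine receptor genes higher and 3 lower, and 1 Mcl1 turnover gene lower. A floor of 20 CPM gave 0 other Bcl2 family genes lower. UMIs per cell, the shared clusters, the shared barcodes and the totals used across ranges were chosen after seeing the data. Beyond the alternatives' own construction the cause was not tested. With 1 library per age, no library could be left out. No paired analysis was possible because each age has 1 library.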
